A study of Mus musculus with 24 samples.

Results

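Small RNA libraries from the medial frontal cortex of C57BL/6J mice at postnatal day 28 were compared between the Dnmt3l genotype (6 libraries) and its control (6 libraries). The members described here were the known mouse microRNAs that had a count above 0 in all 12 libraries. They were 341 of the 690 known microRNAs in a table of 1821 entries, whose other 1131 entries were predicted microRNAs. A further 349 known microRNAs had a 0 in at least 1 library and were kept out of the comparison, because the table may give 0 for a microRNA it simply did not report in that library. The members carried 328 distinct mature names, because 13 entries were further copies of a name from another hairpin. By the arm in the name, 157 were 5p products, 177 were 3p products and 7 had no arm given.

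Control mice carried Emx1-cre. The Dnmt3l genotype came from breeding conditional Dnmt3l knock-in mice to the Emx1-cre line, so both genotypes carried the Cre driver, and each genotype had 3 males and 3 females. Dnmt3l is a relative of the DNA methyltransferases that lacks catalytic activity and works as their cofactor. Emx1 drives Cre in the progenitors of the dorsal telencephalon, from which cortical excitatory neurons and most cortical macroglia descend, whereas microglia, vessel cells and interneurons have other origins. The libraries are bulk samples, in which fewer cells of a type and less RNA per cell cannot be told apart. The labels do not say that the 3 samples of a group came from separate animals, and the p-values then reflect only sample-to-sample spread, technical or not. Small RNA columns were tied to groups and not to numbered samples, and the libraries are written with a letter: CMa to CMc for control males, CFa to CFc for control females, DMa to DMc for Dnmt3l males and DFa to DFc for Dnmt3l females. Letters were given in the order of the column numbers, and DFa is the column whose name matches that of the long RNA library DF1.

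A microRNA is cut from a hairpin, first in the nucleus by Drosha with Dgcr8 and then in the cytoplasm by Dicer1, and 1 strand of the resulting duplex is loaded onto an Argonaute protein. The loaded strand finds messenger RNAs mainly through its seed, bases 2 to 8, so microRNAs that share a seed can share targets. In cortex, miR-9, miR-124 and miR-128 are abundant in neurons, miR-219a and miR-338 belong to oligodendrocytes, and miR-126a and miR-143 come from endothelium and vessel wall.

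The mature sequences of the microRNAs that changed between genotypes are shown first, since the results turn on them. They are RefSeq sequences (build GRCm38.p6), written 5′ to 3′ with the seed in capitals, for the 8 of the 12 microRNAs that passed the test and had an entry. miR-466d-3p, miR-466c-3p, miR-320-3p and miR-135b-5p are named only. In all, 297 of the 341 members matched a RefSeq mature sequence.
miR-144-5p: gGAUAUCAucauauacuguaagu
miR-499-5p: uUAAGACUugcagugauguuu
miR-206-3p: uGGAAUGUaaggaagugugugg
miR-34b-3p: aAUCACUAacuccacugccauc
miR-190a-5p: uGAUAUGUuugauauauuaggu
miR-23a-3p: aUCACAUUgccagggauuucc
miR-324-5p: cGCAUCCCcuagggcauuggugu
miR-134-5p: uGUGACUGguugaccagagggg
In GRCm38.p6 these lie at chr11:78073010-78073032 on the plus strand (miR-144-5p), chr2:155622893-155622913 on the plus strand within the span of Myh7b (miR-499-5p), chr1:20679055-20679076 on the plus strand (miR-206-3p), chr9:51103574-51103595 on the minus strand within the spans of Hoatz and Btg4 (miR-34b-3p), chr9:67236700-67236721 on the minus strand within the span of Tln2 (miR-190a-5p), chr8:84208563-84208583 on the plus strand (miR-23a-3p), chr11:70012060-70012082 on the plus strand within the span of Acadvl (miR-324-5p) and chr12:109734145-109734166 on the plus strand (miR-134-5p). A span is the annotated start to end of a gene on either strand. Whether the hairpin lay on the strand of the gene, or in an exon or an intron, was not determined. No 2 of the 8 share a seed.

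Members of 3 further groups share a seed, and their sums are described under the families. The let-7 microRNAs and miR-98 share GAGGUAG, the miR-29 microRNAs share AGCACCA, and GUAAACA is shared by the 3 miR-30 microRNAs with an entry and by miR-384-5p.
let-7a-5p: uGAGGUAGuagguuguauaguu
let-7b-5p: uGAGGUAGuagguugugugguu
let-7f-5p: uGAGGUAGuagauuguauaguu
miR-98-5p: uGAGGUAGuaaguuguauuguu
miR-29a-3p: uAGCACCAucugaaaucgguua
miR-29c-3p: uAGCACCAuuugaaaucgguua
miR-30a-5p: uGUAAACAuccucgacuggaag
miR-30e-5p: uGUAAACAuccuugacuggaag

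Depth separated the genotypes completely. Controls had total counts of 17784876 to 19608955 and the Dnmt3l libraries 11397289 to 12378452. Known microRNAs above 0 numbered 527 to 540 per control library and 409 to 442 in 5 Dnmt3l libraries, with 481 in DFa. For both measures the exact two-sided permutation p over 6 against 6 libraries was 0.0021645, the smallest this design can give. The 341 members held 97.9% to 99.7% of each library's counts. Depth and genotype cannot be told apart here, and levels are given as CPM (the library's counts brought to a fixed total), scaled between libraries by TMM factors of 0.935 to 1.08, with 0.879 in DFa. DFa stood apart from the other Dnmt3l libraries. On the first principal component of log2 CPM (37.7% of the variance) DFa was at -5.20, the controls between -4.78 and -0.92, and the other 5 Dnmt3l libraries between 2.61 and 5.47. Values of 1 to 3 counts, over known and predicted entries together, were common in the controls (128 to 145 entries) and in DFa (138). They were given for 51 entries in DMb and 1 to 5 in each of the other 4 Dnmt3l libraries. Each result below is given with all 12 libraries first, and without DFa where that moves it. Leaving out each library in turn was planned, and giving DFa this place was chosen after its values were seen.

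**Figure D1:**
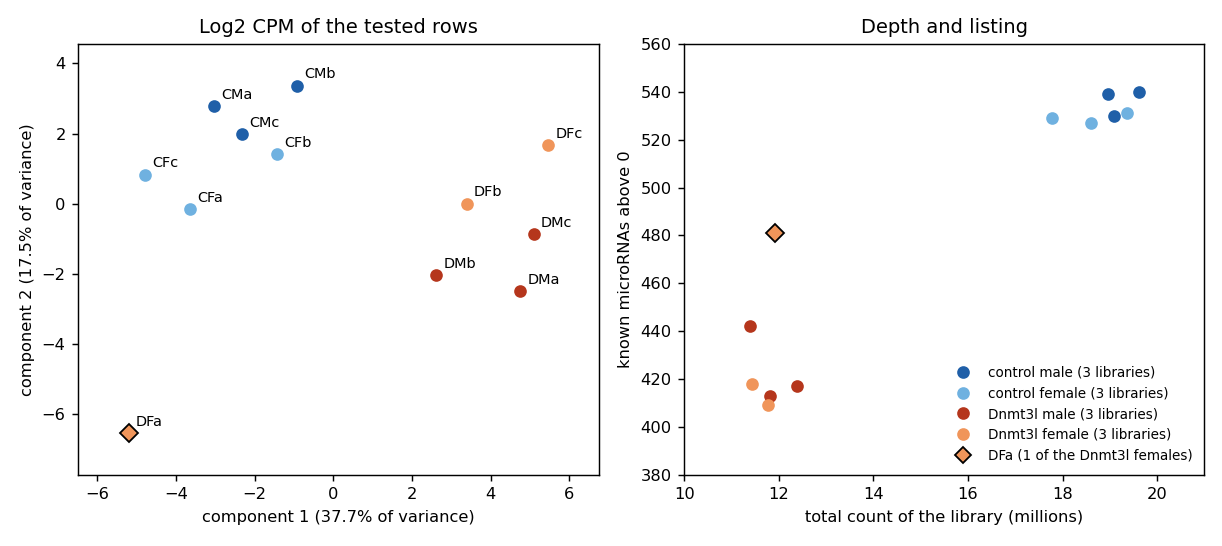
Left, each of the 12 small RNA libraries on the first and second principal components of log2 CPM of the tested microRNAs. Right, total count (x axis) against the number of known microRNAs above 0 (y axis). The 6 controls, from 17784876 counts upward, all lie to the right of the 6 Dnmt3l libraries, which reach 12378452. DFa, drawn as a diamond, lies at the controls' end of component 1 and lists 481 known microRNAs, more than the 409 to 442 of the other Dnmt3l libraries.

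With all 12 libraries, 12 of the 341 members differed between genotypes, 4 higher (1.16%) and 8 lower (2.33%) in Dnmt3l (3.49% of all 344 microRNAs tested, the members and 3 predicted ones). The test was edgeR's quasi-likelihood test, two-sided, with Benjamini-Hochberg adjustment over all 344 and a threshold of 0.05, and every adjusted p given for a microRNA or a family comes from it. At an unadjusted p below 0.05 there were 91 members. Most differences were small, and the median size over the members was 0.17 on the log2 scale. Without DFa, 130 members passed (120 distinct names), 62 higher (18.0%) and 68 lower (19.8%), together 37.8% of the 344. Those 12 were all among the 130, with the same direction.

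Among the microRNAs that fell, miR-466d-3p had the largest change. Its level was 16, 17.2 and 18.8 CPM (lowest, median and highest) in controls and 1.04, 1.5 and 2.29 CPM in Dnmt3l, with DFa the highest at 2.29. The groups did not overlap: every control had 301 to 339 raw counts and every Dnmt3l library 13 to 24. In the fit this was a log2 change of -3.52 ± 0.14 (SE), edgeR adjusted p 4.36e-09. The miR-466 family has many near-identical hairpins, and how the authors' counting divided reads among them is not given, so this value is uncertain. Its relative miR-466c-3p rose, from 14.3, 15.9 and 19.5 CPM in controls to 19.2, 23.2 and 27.8 CPM in Dnmt3l, a log2 change of 0.53 ± 0.12 with adjusted p 0.0214. The sum of both, as a family, did not pass (adjusted p 0.0586) with all 12 libraries and was lower without DFa (-0.49 ± 0.10, adjusted p 0.00309).

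miR-499-5p, a microRNA of heart and slow muscle encoded within the myosin gene Myh7b, was lower in every Dnmt3l library. Controls ranged narrowly, at 25.7, 26.8 and 27.9 CPM, and Dnmt3l libraries were at 11.1, 13.9 and 15.4 CPM with DFa again highest. No Dnmt3l library reached the lowest control. This was a log2 change of -0.98 ± 0.10 (adjusted p 0.000115). It passed within each sex, at -1.06 in males (adjusted p 0.00124) and -0.91 in females (adjusted p 0.00813).

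miR-144-5p is transcribed with miR-451 in red cell precursors. It had 38.6, 61.5 and 74.3 CPM in controls and 22.5, 28.3 and 39.6 CPM in Dnmt3l. Only DFa, at 39.6 CPM, lay above the lowest control. The log2 change was -1.05 ± 0.13, adjusted p 0.000316. In males it was -1.48 and passed, in females -0.63 and did not (adjusted p 0.18), and the difference between the sexes did not pass.

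miR-34b-3p comes from the miR-34b and miR-34c hairpin pair, a p53-responsive locus that is also active in ciliated epithelium. Its level was 22.7, 31.0 and 37.0 CPM in controls and 13.8, 18.4 and 26.1 CPM in Dnmt3l, so the groups overlapped. The fit gave -0.70 ± 0.12 on the log2 scale, adjusted p 0.00619. By sex it was -1.11 ± 0.17 in males (adjusted p 0.00308) and -0.30 in females (adjusted p 0.551).

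miR-190a-5p lies within the talin gene Tln2. Controls had 270, 296 and 322 CPM and Dnmt3l libraries 172, 209 and 245 CPM, with no overlap. The log2 change was -0.53 ± 0.09, adjusted p 0.00556.

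The remaining 3 that fell had smaller or less stable changes. miR-206-3p, a skeletal muscle microRNA, had only 51 to 73 raw counts in controls and 15 to 35 in the shallower Dnmt3l libraries. In CPM the groups overlapped, and the log2 change was -0.93 ± 0.20 with adjusted p 0.0214. miR-23a-3p, of the cluster with miR-27a and miR-24-2, was at 2967, 3255 and 3796 CPM in controls and 2105, 2326 and 3126 CPM in Dnmt3l. Its highest Dnmt3l value was DFa, the only one inside the control range. The log2 change was -0.43 ± 0.10, adjusted p 0.0264. miR-320-3p is made from a capped hairpin without Drosha. It went from 180, 200 and 203 CPM to 143, 151 and 171 CPM with no overlap, a log2 change of -0.34 ± 0.07 with adjusted p 0.0214.

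Of the 4 that rose, miR-134-5p is a dendritic microRNA of the imprinted Dlk1-Dio3 region that restrains spine growth. It had 263, 277 and 314 CPM in controls and 314, 357 and 372 CPM in Dnmt3l. The lowest Dnmt3l library, DFa, was just above the highest control. It rose by 0.31 ± 0.07 on the log2 scale (adjusted p 0.0214). miR-135b-5p had 842, 865 and 929 CPM in controls and 1009, 1033 and 1181 CPM in Dnmt3l, with DFa the highest of all, and a log2 change of 0.28 ± 0.06 with adjusted p 0.0174. miR-324-5p had 115, 126 and 139 CPM in controls and 137, 179 and 187 CPM in Dnmt3l, where only DFa, at 137 CPM, lay inside the control range, and a log2 change of 0.44 ± 0.09 with adjusted p 0.0174.

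The groups did not overlap for 3 members that were higher in Dnmt3l (0.872% of the 344) and 4 that were lower (1.16%). The lower ones were miR-466d-3p, miR-499-5p, miR-190a-5p and miR-320-3p. The higher ones were miR-134-5p, miR-135b-5p and miR-455-3p, and the last of these, with a log2 change of 0.29, did not pass the test (adjusted p 0.122). Without DFa 27 members were higher with no overlap (7.85%) and 34 lower (9.88%). Across the 25 alternative settings tried for each microRNA, miR-466d-3p, miR-144-5p, miR-499-5p, miR-34b-3p and miR-190a-5p passed in all 25. miR-324-5p passed in 21, miR-135b-5p in 19, miR-206-3p and miR-466c-3p in 15, miR-134-5p and miR-320-3p in 14, and miR-23a-3p in 11, each keeping its direction throughout.

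**Figure D2:**
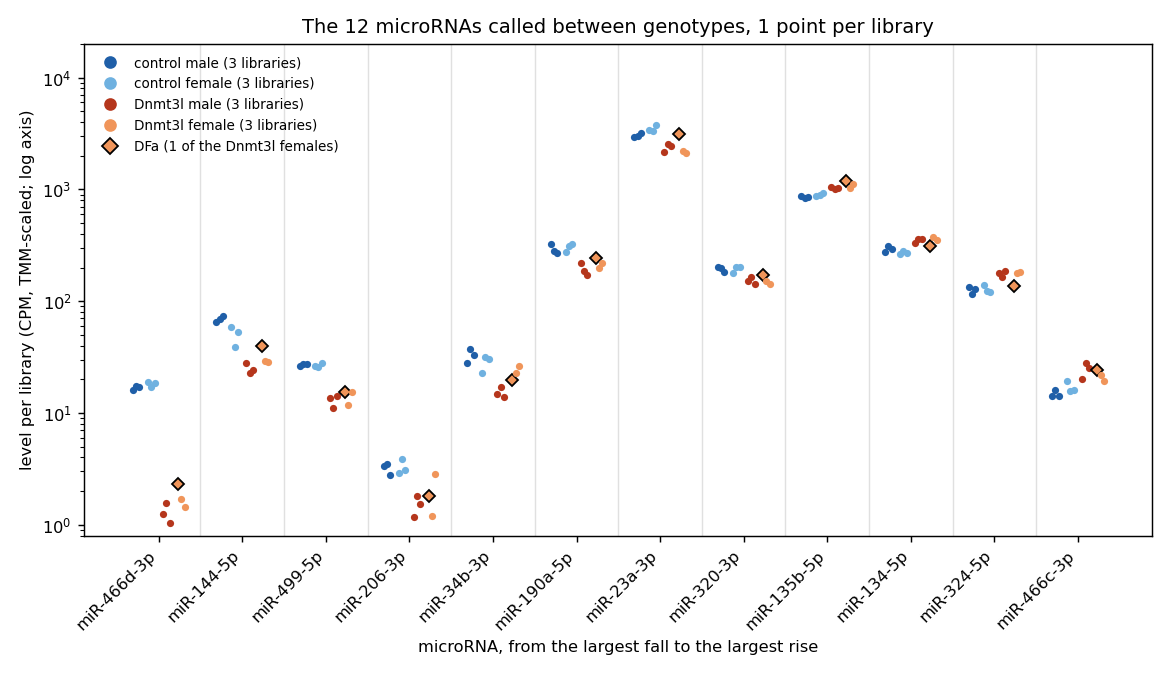
Level in CPM (log axis) of the 12 microRNAs that passed the test, ordered from the largest fall to the largest rise, with 1 point per library and DFa drawn as a diamond. miR-466d-3p falls from between 16 and 18.8 CPM in the 6 controls to between 1.04 and 2.29 CPM in the 6 Dnmt3l libraries. The 4 microRNAs on the right are higher in Dnmt3l by 0.28 to 0.53 on the log2 scale.

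Without DFa the count of members that passed rose from 12 to 130. In DFa itself, the 62 members that were higher without it had a median of -0.23 on the log2 scale against the control median, and 13 of the 62 were above the control median. The 68 that were lower had a median of 0.15 in DFa, and 17 of the 68 were below. By these medians DFa therefore lay on the other side of the control median from the remaining Dnmt3l libraries, though not for every member. The number that passed without DFa, and its division into higher and lower, depended on scaling. TMM gave 62 higher and 68 lower, the median-ratio scaling (RLE) 62 and 64, upper quartile scaling 36 and 75, and library totals alone 83 and 45. The median change over the tested microRNAs was -0.01, -0.01, -0.06 and 0.08 under these 4 scalings, and none of the 130 changed sign under any of them.

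Of those that passed only without DFa, miR-34a-5p, the brain's main p53-responsive miR-34, had 480, 565 and 626 CPM in controls and 266, 374 and 898 CPM in Dnmt3l, with DFa at 898. Its log2 change was -0.33 (adjusted p 0.368) with all libraries and -0.69 ± 0.09 (adjusted p 0.000177) without DFa. miR-323-3p, of the Dlk1-Dio3 region, had 834, 1115 and 1318 CPM in controls and 730, 1836 and 1962 CPM in Dnmt3l, with DFa lowest at 730. It went from 0.61 (adjusted p 0.122) to 0.79 ± 0.10 (adjusted p 0.000234). In the same region, miR-770-5p had 365, 390 and 474 CPM in controls and 283, 633 and 783 CPM in Dnmt3l, where DFa was again the lowest. Its change went from 0.56 (adjusted p 0.112) to 0.73 ± 0.09 (adjusted p 0.000177). For all 3, DFa was on the far side of the control range from the other Dnmt3l libraries.

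The 3 microRNAs of the miR-183 cluster, a sensory organ and retina cluster also found in pineal gland, were the largest falls without DFa after miR-466d-3p, at -1.59 ± 0.45 for miR-96-5p (adjusted p 0.0174), -1.17 for miR-182-5p (adjusted p 0.0368) and -1.15 for miR-183-5p (adjusted p 0.0409). Their controls varied widely. miR-183-5p had 22.7, 49.2 and 118 CPM in controls and 22.6, 26.4 and 33.9 CPM in Dnmt3l, so the Dnmt3l range began at the lowest control. With all 12 libraries none of the 3 passed (adjusted p 0.137 and 0.139). They lie together on chromosome 6 and share a transcript, so they are not independent observations.
miR-183-5p: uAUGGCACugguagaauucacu
miR-182-5p: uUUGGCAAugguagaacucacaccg
miR-96-5p: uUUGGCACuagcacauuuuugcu

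Males and females were then compared on the genotype effect, since the design holds both sexes in both genotypes. In males 5 members passed, all lower (1.45% of the 344; 0 higher): miR-466d-3p, miR-499-5p, miR-190a-5p, miR-34b-3p and miR-144-5p. In females 2 passed, both lower (0.581%): miR-466d-3p (-3.33, adjusted p 3.71e-07) and miR-499-5p. At an unadjusted p below 0.05 there were 71 members in males and 23 in females. The test of the difference between the sexes called 0 members in edgeR and 0 in DESeq2, with 15 at an unadjusted p below 0.05 in edgeR. Without DFa, which leaves 2 Dnmt3l females, 59 members passed in males (17.2% of the 344), 26 higher (7.56%) and 33 lower (9.59%). In females 72 passed (20.9%), 34 higher (9.88%) and 38 lower. The effect differed between the sexes for 8 (2.33%), with a male effect above the female one for 2 (0.581%) and below it for 6 (1.74%).

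Those 8 were miR-1298-5p, miR-448-3p, miR-34c-5p, miR-1912-3p, miR-204-5p, miR-449a-5p, miR-132-3p and miR-674-3p. miR-1298, miR-448 and miR-1912 all lie within the span of the serotonin receptor gene Htr2c, so these 3 may not be separate observations, and miR-204 is abundant in choroid plexus. miR-1298-5p had 1521 to 1875 CPM in control males, 553 to 1147 in control females, 438 to 734 in Dnmt3l males and 470 (DFa), 1566 and 1752 in Dnmt3l females. The sexes thus differed already in the controls, and DFa alone was low among Dnmt3l females. Its male effect minus its female effect was -2.34 ± 0.35 without DFa (adjusted p 0.00719) and -1.93 ± 0.58 with it (adjusted p 0.516). miR-204-5p differed by -0.69 ± 0.15 without DFa (adjusted p 0.0363) and by -0.51 ± 0.21 with it (adjusted p 0.919). miR-132-3p, which neuronal activity induces, was lower in females without DFa (-0.54, adjusted p 0.00884) and not in males (0.17, adjusted p 0.243), a difference with adjusted p 0.0363 that was 0.98 with all 12 libraries.

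The 10 most abundant members, by mean share of a library's counts, were miR-9-5p (16.2%), the miR-128-3p entries of hairpins 1 (7.94%) and 2 (5.92%), miR-124-3p (5.24%), miR-26a-5p (5.22%), miR-30a-5p (3.90%), miR-29a-3p (2.81%), miR-125b-5p (2.58%), miR-101a-3p (2.40%) and miR-30d-5p (2.33%). None of the 10 passed the test with all 12 libraries. Their log2 changes lay between -0.28 and 0.10. miR-9-5p, which controls neural progenitor proliferation, had 150368, 154174 and 171973 CPM in controls and 139757, 166832 and 188432 CPM in Dnmt3l, a log2 change of 0.07 ± 0.07 (adjusted p 0.558). miR-124-3p, the most neuron-specific of the 10, had 48145, 51946 and 64752 CPM in controls and 44842, 47590 and 70658 CPM in Dnmt3l, a change of -0.05 ± 0.11 (adjusted p 0.796). For both, the Dnmt3l range enclosed the control range, and DFa was the highest library.
miR-9-5p: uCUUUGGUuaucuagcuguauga
miR-128-1-3p: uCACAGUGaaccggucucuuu
miR-128-2-3p: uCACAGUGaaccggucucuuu
miR-26a-5p: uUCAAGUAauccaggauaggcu
The 2 entries of miR-128-3p have the same mature sequence in RefSeq and yet different counts in every library, for example 1586418 and 1163718 in CMa, so the table did not simply repeat 1 count for both hairpins. No source used here states how reads were divided between them.

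Without DFa, 3 of the 10 were lower in Dnmt3l, beside 19.8% of all 344 tested. They were miR-29a-3p (-0.44, adjusted p 0.00166), miR-26a-5p (-0.28, adjusted p 0.0038) and miR-30a-5p (-0.21, adjusted p 0.0317). miR-26a-5p had 53499, 54418 and 61847 CPM in controls and 42816, 46986 and 66079 CPM in Dnmt3l, and DFa, at 66079, was the only Dnmt3l library inside or above the control range. Together the 10 held 53.7% ± 1.1 of a library's counts in controls (SD, n = 6) and 55.5% ± 1.4 in Dnmt3l (SD, n = 6). The difference was 1.80 percentage points, with a two-sided exact permutation p of 0.0368. With the 20 most abundant it was 1.03 points and did not pass (exact permutation p 0.152). Leaving out any 1 of CMb, CMc, CFb, CFc, DMa, DMb or DFa took the p for the 10 above 0.05, to between 0.0541 and 0.0801. These shares are of all counts, including microRNAs kept out because of a 0, so what was listed can move them. All members together held 97.9% to 98.2% of counts in controls and 97.9% to 99.7% in Dnmt3l. The part of listing in the difference was not tested.

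**Figure D3:**
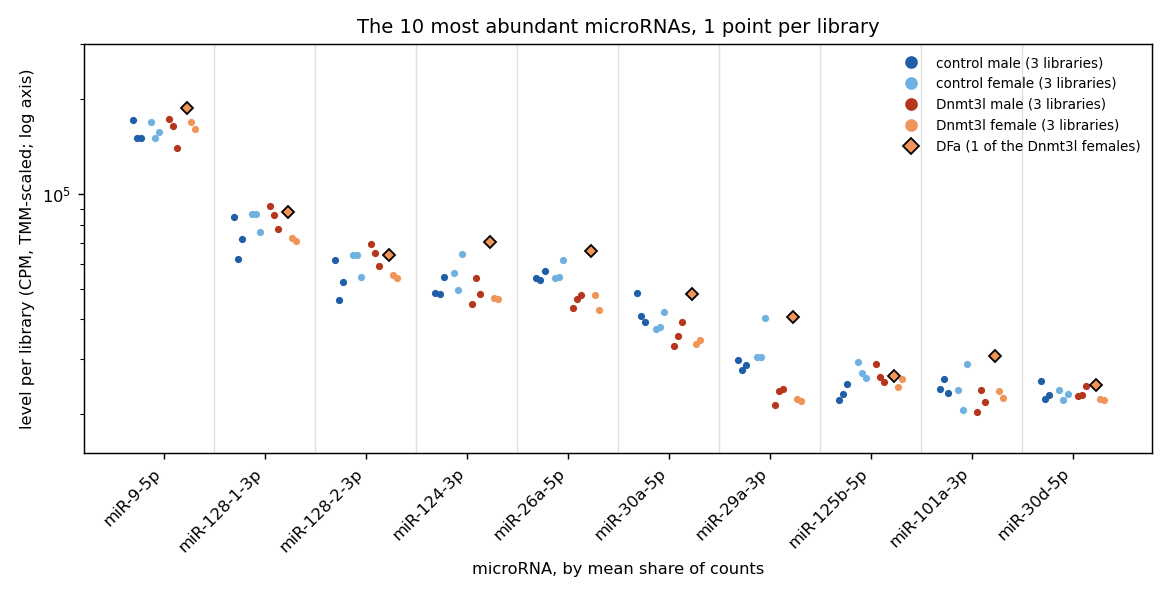
Level in CPM (log axis) of the 10 most abundant known microRNAs, ordered by mean share of counts, with 1 point per library and DFa drawn as a diamond. The groups overlap for all 10 microRNAs, and the diamond lies above the other Dnmt3l libraries for miR-9-5p, miR-124-3p, miR-26a-5p, miR-30a-5p and miR-29a-3p.

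Members that share a name number and an arm can share reads, so their counts were also summed. The members formed 273 such families, 239 of them with 1 member, and 9 families passed the test (3.30% of 273), 3 higher (1.10%) and 6 lower (2.20%). The lower ones were miR-144, miR-499, miR-206, miR-34-3p (the single member miR-34b-3p), miR-320 and miR-190, the last being the sum of miR-190a-5p and miR-190b-5p at -0.51. The higher ones were miR-134, miR-324 and miR-667-3p, with log2 changes of 0.32, 0.45 and 0.31. Without DFa 94 families passed (34.4%), 48 higher (17.6%) and 46 lower (16.8%).

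None of the 8 families of 3 or more members, which hold 37 members in all, passed with 12 libraries. The let-7 family, whose members promote differentiation and are blocked by Lin28 proteins, had a summed level of 68129, 72356 and 80432 CPM in controls and 54198, 62694 and 89076 CPM in Dnmt3l. DFa was the highest of all 12 libraries. Its log2 change was -0.16 ± 0.09 (adjusted p 0.268) and -0.25 ± 0.06 without DFa (adjusted p 0.00852), where 5 of 8 members were lower and let-7b-5p (0.09, adjusted p 0.468) was not among them. Under upper quartile scaling without DFa the family did not pass (adjusted p 0.0718). miR-98-5p, which has the let-7 seed under another number, changed by -0.28 ± 0.08 (adjusted p 0.0892) and by -0.32 without DFa (adjusted p 0.00596).

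The miR-29 family is known to target Dnmt3a and Dnmt3b mRNAs and collagen mRNAs. Summed, it had 29729, 32688 and 44837 CPM in controls and 23469, 25314 and 46663 CPM in Dnmt3l, with DFa highest at 46663. The fitted sum also held a further entry of miR-29b-3p. Its log2 change was -0.26 ± 0.16 (adjusted p 0.295), and without DFa -0.45 ± 0.09 (adjusted p 0.00193) with all 3 members lower. The miR-30 family changed by -0.12 ± 0.09 (adjusted p 0.367), and by -0.20 without DFa (adjusted p 0.0229), a call that was lost under upper quartile scaling (adjusted p 0.189) and under library totals (adjusted p 0.136).

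Family sums also lay in the other direction. The miR-376-3p family of the Dlk1-Dio3 region had 2158, 2316 and 2502 CPM in controls and 2240, 2835 and 3244 CPM in Dnmt3l, with DFa lowest, a log2 change of 0.26 ± 0.08 (adjusted p 0.0981) and 0.31 without DFa (adjusted p 0.003). Under upper quartile scaling it passed with all 12 libraries (adjusted p 0.018). The miR-669-5p family, a rodent family of near-identical hairpins, had 23.4, 25.6 and 28.5 CPM in controls and 23.3, 34.1 and 36.6 CPM in Dnmt3l, where DFa was again lowest, and changed by 0.35 ± 0.11 (adjusted p 0.112) and by 0.43 without DFa (adjusted p 0.00217). It too passed with all 12 libraries under upper quartile scaling (adjusted p 0.0246). The epithelial miR-200-3p family (-0.47 ± 0.29, adjusted p 0.284) did not pass with or without DFa. For the miR-181-5p and miR-344-3p families the values were -0.00 and -0.01, and their signs changed with scaling.

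**Figure D4:**
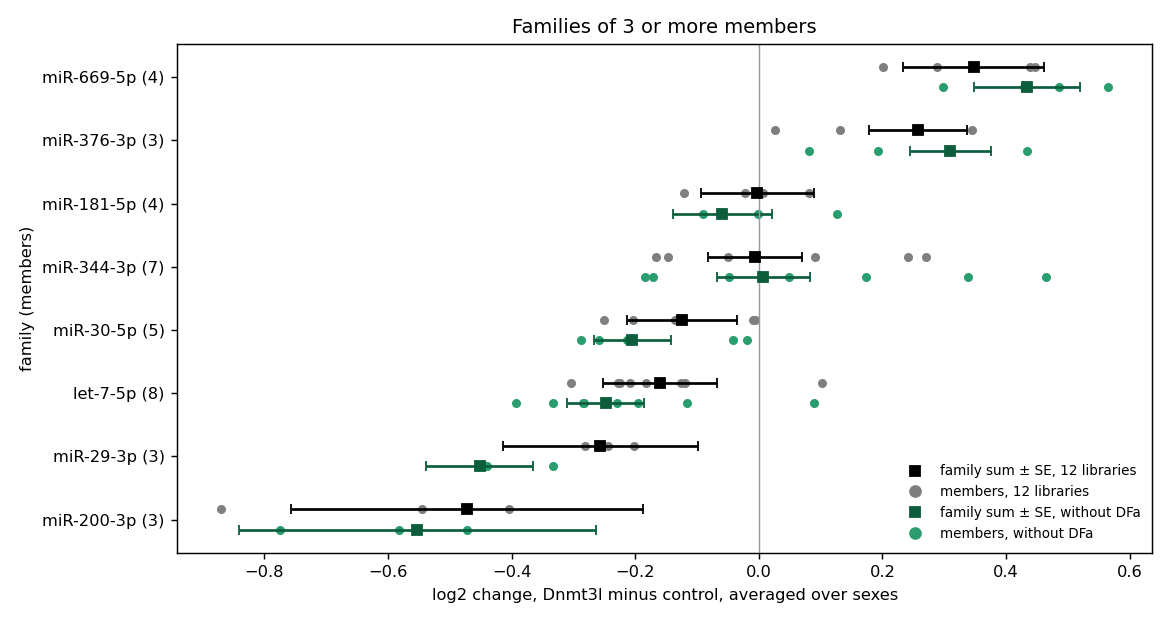
Log2 change between genotypes (x axis, Dnmt3l minus control) of the 8 families with 3 or more members, with all 12 libraries and without DFa; squares are family sums with SE and dots are single members. The let-7, miR-29 and miR-30 sums lie left of 0 in both fits and move further left without DFa, to -0.25, -0.45 and -0.20. The miR-376 and miR-669 sums lie right of 0.

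The ratio of the 5p to the 3p product of a hairpin could be followed for 1 name only. Both arms were listed for 31 names and had counts in at least 1 library for 26, but only miR-219a, an oligodendrocyte microRNA needed for myelination, had both above 0 in all 12 libraries. Its 5p arm had 397 to 797 counts in controls and 177 to 264 in Dnmt3l, and its 3p arm 32423 to 61976 and 18143 to 28673. The 3p entry thus had far more counts in every library. The log2 ratio of 5p to 3p (0.5 added to each count) was -6.36 ± 0.33 in controls and -6.69 ± 0.32 in Dnmt3l (SD, n = 6 each). The difference of -0.33 did not pass (two-sided exact permutation p 0.110). Without DFa, which at -6.10 had the highest ratio of the Dnmt3l libraries, it was -0.45 with an exact permutation p of 0.0130. The 5p sequence is made by both miR-219a hairpins, so the ratio is not that of 1 hairpin. The 3p entry names no hairpin, and the 3p sequence shown is that of Mir219a-1, the only hairpin matched to it. Which hairpin gave the 3p counts is not known.
miR-219a-5p: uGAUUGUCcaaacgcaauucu
miR-219a-3p: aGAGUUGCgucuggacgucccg
For several other names both arm entries had the same count in a library, such as 137 and 137 for miR-450b in CMa and 3282 and 3282 for miR-485 in CMc. Whether 1 count was given to both arms is not known, so the arm in a name may be uncertain. Counted by the arm in the name, 3 members rose and 3 fell among the 157 5p products, and 1 rose and 5 fell among the 177 3p products. Of all 344 tested, 1.16% were higher and 2.33% lower.

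Markers of the cell types that cortex or an adjoining tissue could hold were read as lists. Of 9 neuronal microRNAs 8 were members, and 0 passed. Without DFa miR-153-3p alone passed (-0.44, adjusted p 0.00739). Of 4 oligodendrocyte microRNAs 3 were members and 0 passed, while without DFa miR-219a-5p (-0.74, adjusted p 0.0123) and miR-338-5p (-0.35, adjusted p 0.0105) were lower. The oligodendrocyte members include the miR-219a-3p entry, whose hairpin is not known. The neuronal markers, which check the labelled tissue, summed to 288696 to 341990 CPM in controls and 289988 to 379682 CPM in Dnmt3l.

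Vessel microRNAs moved with DFa. Of 5 on the list 3 were members and 0 passed with all libraries. Their summed level was 19072 to 25574 CPM in controls and 11307 to 25831 CPM in Dnmt3l, with 25831 in DFa and at most 17182 in the other 5. Most of this is miR-143-3p of smooth muscle and pericytes, which had 12842, 14989 and 18796 CPM in controls and 6580, 10308 and 17868 CPM in Dnmt3l, a log2 change of -0.50 (adjusted p 0.147) and of -0.67 ± 0.13 without DFa (adjusted p 0.00271). miR-145a-5p of the same locus changed by -0.22 and by -0.30 without DFa (adjusted p 0.013), whereas the endothelial miR-126a-3p, at -0.10 and -0.14, passed in neither. The part of vessel content in the results of other microRNAs was not tested.

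Muscle and blood markers include 2 of the 12 microRNAs that passed. All 3 muscle microRNAs were members, and their sum was 518 to 727 CPM in controls, 322 to 449 CPM in 5 Dnmt3l libraries and 809 CPM in DFa. With all libraries miR-206-3p alone passed, and without DFa miR-1a-3p (hairpin 1) and miR-133a-3p were lower as well, both at -0.67. Of 4 red cell microRNAs 2 were members. Their sum was 138 to 232 CPM in controls and 111 to 159 CPM in Dnmt3l, miR-144-5p was lower, and miR-486a-5p was lower without DFa only (-0.41, adjusted p 0.0476). miR-451a and miR-144-3p were not members because of a 0. The liver microRNA miR-122-5p was near the bottom of the range in all libraries, at 1.63 to 2.94 CPM in controls and 1.05 to 2.86 CPM in Dnmt3l. The part of muscle or blood RNA in the values of miR-499-5p, miR-206-3p and miR-144-5p was not tested.

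Of 6 microglia and leukocyte microRNAs 3 were members, with 0 passing and 1 lower without DFa, and miR-146a-5p had 229, 287 and 351 CPM in controls and 210, 295 and 358 CPM in Dnmt3l. Of 9 choroid plexus and epithelial microRNAs 7 were members, with 0 passing and 1 higher without DFa. Of 8 activity-regulated microRNAs 5 were members and 1, miR-134-5p, rose, while without DFa 1 was higher and 1 lower. Of 6 microRNAs known to target DNA methyltransferase mRNAs all were members and 0 passed. Without DFa the 3 of the miR-29 family were lower, while miR-148a-3p (0.10, adjusted p 0.326) and miR-152-3p (0.06, adjusted p 0.557) did not pass. These counts stand beside 3.49% of all tested microRNAs passing with 12 libraries and 37.8% without DFa.

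Members whose RefSeq positions lay within 50 kb of a neighbour were grouped by locus. The largest group was the miR-379 part of the imprinted Dlk1-Dio3 region on chromosome 12, transcribed from the maternal chromosome, with 33 members. One of the 33, miR-134-5p, was higher with all libraries, and without DFa 15 were higher and 1 lower (18.0% and 19.8% of all tested). The median log2 change of the 33 was 0.11, beside -0.01 over all members, and 0.16 without DFa. A further 10 members upstream in the same region, from miR-770-5p on, had 0 passing and 4 higher without DFa. In DFa itself the median of the 33 against the control median was -0.15, whereas it was 0.09 to 0.20 in the other 5 Dnmt3l libraries. The 6 members of the miR-17-92 cluster on chromosome 14, which drives proliferation, had 0 passing and 4 higher without DFa, for example miR-18a-5p at 23, 31.1 and 35.5 CPM in controls and 24.4, 40.6 and 52 CPM in Dnmt3l with DFa lowest (0.53, adjusted p 0.00373 without it). The 5 members around miR-23a on chromosome 8 had 1 lower, miR-23a-3p, and 3 lower without DFa. The groups were formed by distance alone and can hold both strands: miR-181c and miR-181d lie on the minus strand and miR-23a, miR-27a and miR-24-2 on the plus strand. Neighbours that are transcribed together are not separate observations.

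Base composition moved with the genotype difference. Over the 285 distinct mature names with a RefSeq sequence, Spearman's rho between GC content and the log2 change was 0.26. Split into 3 equal groups of 95 by GC content, the median log2 change was -0.11, -0.03 and 0.08 from low to high. Without DFa, 10 members of the low group were higher and 21 lower. In the middle group 14 were higher and 18 lower, and in the high group 27 were higher and 8 lower. Of all 344 tested, 18.0% were higher and 19.8% lower without DFa, so the low group's falls were near the general share. By library, rho against the control median was 0.25 to 0.29 in the 3 Dnmt3l males, 0.14 and 0.11 in DFb and DFc, and -0.04 in DFa. For sequence length rho was -0.03. These values describe microRNAs of the same libraries, and the part of GC content in single results was not tested.

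The long RNA libraries of the same 4 groups, 12 in all, gave the mRNAs of the machinery and of genes whose span holds these microRNAs. Dnmt3l mRNA itself was at or below 0.102 CPM in the 6 controls and at 20.6 to 45.7 CPM in the 6 Dnmt3l libraries, with DF1 at 45.7. The genotype difference in mRNA was broad: 8136 of 15786 genes passed (51.5%), 3976 higher (25.2%) and 4160 lower (26.4%). Adjusted p-values for mRNAs come from edgeR's quasi-likelihood test with Benjamini-Hochberg adjustment over those 15786 genes. Of 33 machinery genes 32 were tested, and 14 passed, 4 higher and 10 lower. The median log2 change of the 32 was -0.05, beside 0.02 over all genes. Scaled by library totals only, 2 were higher and 16 lower, and none of the 14 changed sign under any scaling tried.

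In the nucleus, Drosha, the first cleavage enzyme, had 152 to 168 CPM in controls and 135 to 141 CPM in 5 Dnmt3l libraries, with 164 CPM in DF1. Its log2 change was -0.18 (adjusted p 0.0236). Its partner Dgcr8 did not pass with all 12 libraries (0.14, adjusted p 0.103) and passed without DF1 (0.15, adjusted p 0.0492). Ran, the GTPase that powers export of hairpins and of many other cargoes, showed the largest change of the list. It had 45.9 to 53.8 CPM in controls, 19.7 to 27 CPM in 5 Dnmt3l libraries and 46.6 CPM in DF1, a log2 change of -0.87 ± 0.15 (adjusted p 0.000748). The exporter Xpo5 was at -0.13 (adjusted p 0.0652) and Dicer1 at 0.13 (adjusted p 0.0971), and both passed without DF1, at -0.17 (adjusted p 0.00494) and 0.14 (adjusted p 0.0172).

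Among loading and silencing factors, Ago1 was lower (-0.16, adjusted p 0.0172) and Ago2 did not pass (-0.09, adjusted p 0.269). The chaperones Hsp90aa1 (-0.54) and Hsp90ab1 (-0.38), which help Argonaute take up the duplex and have many other clients, were lower. Tnrc6a, the GW182 scaffold of silencing, was higher at 0.20. Ddx6, a helicase of RNA decay bodies, had 200 to 231 CPM in controls, 128 to 137 CPM in 5 Dnmt3l libraries and 220 CPM in DF1, a log2 change of -0.59. The helicase Mov10 was higher at 0.46 ± 0.10 (adjusted p 0.00272), with 10.3 to 12.1 CPM in controls, 14.7 to 17.8 CPM in 5 Dnmt3l libraries and 11.4 CPM in DF1. Zswim8, the ubiquitin ligase adaptor of target-directed microRNA decay, was higher at 0.27. For Drosha, Ran, Ddx6 and Mov10, DF1 was inside the control range, and its Dnmt3l level was the highest of the 12. Without DF1, 21 machinery genes passed, 7 higher and 14 lower, beside 62.9% of all 15786 genes (30.1% higher and 32.8% lower). Those gained were Xpo5, Dicer1, Dgcr8, Tarbp2, Xrn2, Tnrc6b and Adarb1, and none of the 14 was lost.

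**Figure D5:**
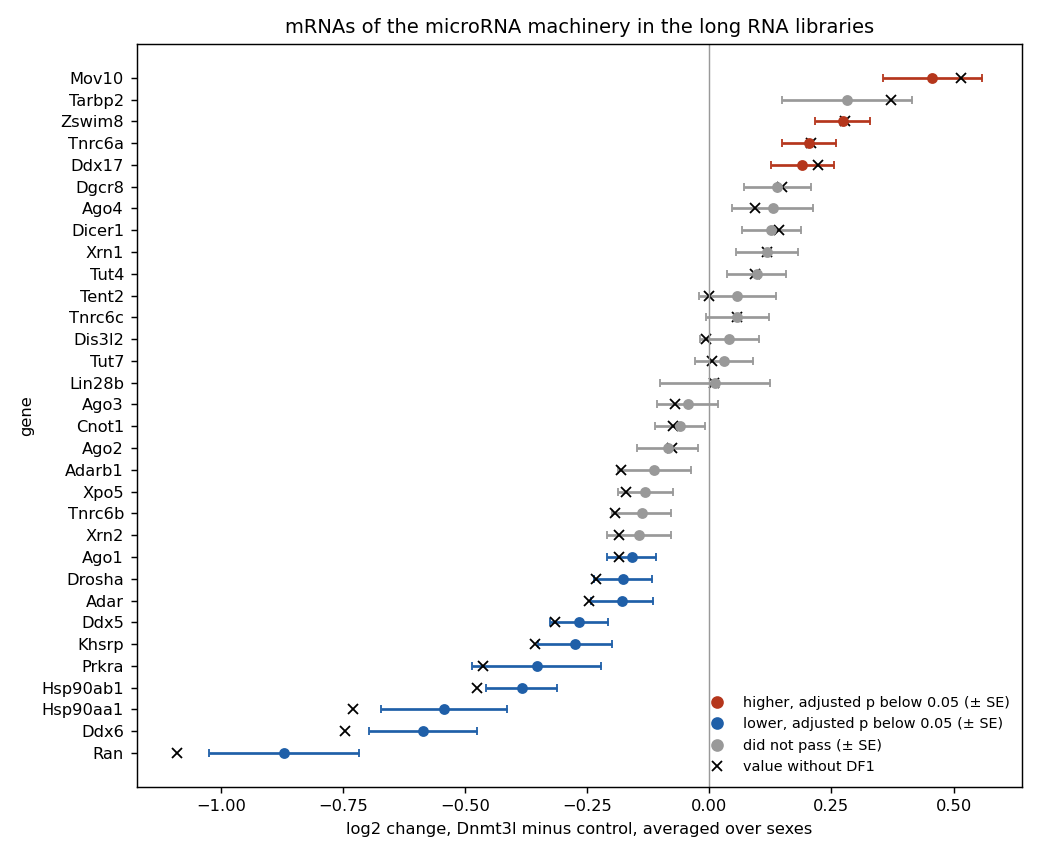
Log2 change (x axis, Dnmt3l minus control, averaged over sexes) with SE for the 32 tested mRNAs of the microRNA machinery in the long RNA libraries; colour marks the 4 that passed as higher and the 10 that passed as lower, and crosses give the value without DF1. Ran lies lowest at -0.87 and Mov10 highest at 0.46.

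Genes whose span holds a microRNA were read beside it. Spans were matched by position and not by strand, so a gene such as Acadvl may not be the host of its microRNA. Myh7b, the host of miR-499-5p, had 3.60 to 5.53 CPM in controls and 1.40 to 3.49 CPM in Dnmt3l, with no overlap and a log2 change of -0.81 ± 0.17 (adjusted p 0.00228), beside -0.98 for its microRNA. DF1, at 2.21 CPM, was low like the other Dnmt3l libraries. Acadvl, whose span holds miR-324, was higher (0.21 ± 0.07, adjusted p 0.0227), as was miR-324-5p at 0.44. Tln2, whose span holds miR-190a, did not pass (0.00 ± 0.06, adjusted p 0.994), whereas miR-190a-5p fell by 0.53 on the log2 scale. R3hdm1, host of the first miR-128 hairpin, was higher (0.37 ± 0.07, adjusted p 0.000951), whereas its microRNA entry was at 0.06 (adjusted p 0.691). Arpp21, host of the second, was at 0.12 (adjusted p 0.114).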

How the data were processed

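The microRNA table holds whole-number counts per microRNA and library, deposited by the authors without length or depth scaling. For long RNA the authors deposited expected counts per transcript with FPKM values, per the file headers. Build GRCm38 and, among other tools, cutadapt 1.9.1 and bedtools 2.17.0 are named in the submitters' processing notes; no source used here says which program called the microRNAs. Columns were tied to groups by name. The 344 microRNAs above 0 in all 12 libraries (341 known) were fitted in edgeR 4.0.16 (R 4.3.3) with TMM scaling, the column totals as library sizes and 4 group means, and contrasts averaged the genotype difference over sexes, took it in each sex or compared the sexes. Family sums were fitted the same way over all entries, while their levels in CPM took 1 entry per mature name. Total small RNA counts were 17784876 to 19608955 per control library and 11397289 to 12378452 per Dnmt3l library. Long RNA totals were 27074837 to 32100277 and 22144970 to 26842726. Expected counts were summed per gene and rounded, genes with 0.5 FPKM or more in at least 3 libraries were tested, and transcripts with no gene ID (0.533% to 0.601% of counts) stayed out. The design had planned limma over hairpins for the arm ratio. Only 1 name could be used, and the exact permutation test replaced it. All replicate pairs differed by more than sampling noise.

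Named are the microRNAs with the largest changes among those that passed, the 10 most abundant, families of 3 or more members, the marker and machinery lists, and, where the sexes differed, the smallest adjusted p-values. Singling out DFa and applying this rule to the fit without it were additions made after seeing the data, as were loci, GC content, the fit with 1 entry per mature name and the block on small RNA column numbers. miR-98-5p, miR-455-3p and the full 8 that differed between sexes without DFa were named after their values were seen. The members and lists were chosen with earlier results of these data known. On simulated counts the microRNA fit recovered 80.0%, 95.0% and 100.0% of changes of 1.5, 2 and 4 times, with 2 false calls of 57. The mRNA fit recovered 53.7%, 88.1% and 92.4%, with 11 false calls of 167. In that mRNA simulation 200 genes were changed, as many up as down, and no library was made to differ from its group. In the data 8136 genes passed and DF1 stood apart for many, so these rates may not hold there. For microRNAs, leaving out DFa moved the count that passed from 12 to 130, so the simulated microRNA rates may not hold either. Alternatives were DESeq2 1.42.0, limma 3.58.1 (voom), other scalings and filters, other groupings of families and arms, and leaving out each library in turn.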

Additional observations from a re-analysis of the deposited data

Results flagged for a closer look

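Known microRNAs with a 0 were outside the comparison, and 4 of them were at 0 in all 6 controls while having over 100 counts in at least 3 Dnmt3l libraries. miR-99b-5p, an abundant brain microRNA, had 37663 to 42217 counts in DMa, DMb, DMc and DFb and was listed at 0 in DFa and DFc. miR-3475-3p had 700 to 939 counts and miR-3084-3p 167 to 203 counts in the same 4 libraries. miR-6481 had 153 to 489 counts in the 5 Dnmt3l libraries other than DFa. The table also lists a 0 for abundant microRNAs in libraries of 1 genotype: miR-127-3p had 248750 to 310885 counts in controls and a 0 in DMa, DFa, DFb and DFc. A 0 in this table was therefore not read as absence, and no fold change is given.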

How the results depend on the processing

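The 12 microRNAs that differed between genotypes became 33 with DESeq2 (19 higher, 14 lower), 7 with upper quartile scaling (1 higher, 6 lower) and 64 with no filter on values of 0 (19 higher, 45 lower). Leaving out each library in turn gave 5 to 130, with 130 only without DFa and at most 13 without any other; the count was 5 without CFb or DMc, 6 without CFc and 7 without CMa, CMb or DFb. Without DFa and with library totals only, 128 passed (83 higher, 45 lower). In males the count of 5 became 17 with DESeq2, 58 with no filter, 52 without DFa under library totals, and 4 to 59 over the libraries left out. In females the count of 2 became 6, 25 and 79 under the same settings and 1 to 72 over the libraries left out, being 1 without CFc or DFb, 4 without DFc and 72 without DFa. The difference between sexes, 0 members, became 1 when microRNAs with 1 CPM in 3 or more libraries were tested with their values of 0, 21 with no filter, 7 without DFa under library totals and 0 to 8 over the libraries left out. The 9 families became 27 with DESeq2, 23 with values of 0 included and 4 to 94 over the libraries left out (4 without CMa or CFb, 5 without CMb, 94 without DFa). The arm ratio difference of miR-219a ran from -0.45 to -0.21 over the libraries left out. The share in the most abundant microRNAs differed by 1.03 points with the 20 most abundant and by 1.42 to 2.15 points over the libraries left out. The 14 machinery genes became 11 to 21 over the libraries left out. In long RNA, samples of the same number did not deviate together (18 pairs, correlations -0.282 to 0.115, 1 over 0.1), and a replicate block gave 13 machinery genes (4 higher, 9 lower). For small RNA, a replicate block on the number in the column name was added after seeing the data. The deviations of same-numbered libraries had correlations of -0.267 to 0.26 (18 pairs, 6 over 0.1), which cannot tell whether these libraries share more than a number. The block gave 13 microRNAs (11 of the 12, without miR-23a-3p, and miR-98-5p and miR-34c-5p besides), 8 in males, 2 in females, 1 that differed between sexes and 6 families; the arm ratio of miR-219a, permuted within numbers, had an exact permutation p of 0.167. Of 549 alternative values of the 22 named microRNAs, 478 kept their direction and side of the threshold, 66 lost the call, 5 gained it and 0 reversed. Fits with values of 0 rest on entries that may not have been listed; for the other changes in count the cause was not tested. The planned limma fit of arm ratios without trend was not run. Depth limits microRNAs near 1 CPM, such as miR-206-3p, to 15 to 35 counts in Dnmt3l, and genotypes differ in depth throughout.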

Other observations

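Without DFa, the largest rises in Dnmt3l beyond those already described included 2 microRNAs of the imprinted Gnas locus. miR-296-5p had 57.2 to 68.5 CPM in controls, 75.7 to 120 CPM in 5 Dnmt3l libraries and 55.4 CPM in DFa, with a log2 change of 0.63 ± 0.12 without DFa (edgeR adjusted p 0.00191) and 0.50 with all 12 libraries (adjusted p 0.107). miR-298-5p had 119 to 176 CPM in controls, 211 to 261 CPM in 5 Dnmt3l libraries and 98.0 CPM in DFa, with 0.58 ± 0.11 without DFa (adjusted p 0.0019) and 0.41 with all 12 (adjusted p 0.21). Of the Dlk1-Dio3 region, miR-1197-3p (0.75 ± 0.14, adjusted p 0.0019), miR-412-5p (0.64 ± 0.11, adjusted p 0.00113) and miR-758-3p (0.62 ± 0.11, adjusted p 0.0019) were higher without DFa, and none of the 3 passed with all 12 libraries. For each of these 5 microRNAs, the value in DFa was below that of every other Dnmt3l library.

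The muscle microRNA miR-133b-3p was lower without DFa (-0.87 ± 0.23, adjusted p 0.0125) and not with it (-0.48, adjusted p 0.331), with 4.10 CPM in DFa and 0.887 to 2.32 CPM in the other 5 Dnmt3l libraries, beside 2.13 to 4.39 CPM in controls. miR-449a-5p, of the multiciliated epithelium, had 12.8 to 22.5 CPM in controls, 18.1 to 28.8 CPM in Dnmt3l males, and 5.43 (DFa), 35.4 and 42.0 CPM in Dnmt3l females.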
